A study of Mus musculus with 20 samples.

Results

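The 10 genes described here encode collagens and other matrix proteins of cartilage: Col2a1, Col9a1, Col9a2, Col9a3, Col10a1, Col11a1, Col11a2, Acan, Matn3 and Lect1. They were selected by symbol from the 24347 genes of the deposited tables and are followed through 12 RNA libraries of mouse bone marrow stroma, in 4 groups of 3. Differences between the genotypes in these libraries were known when the genes were selected, and the differences between the cell populations rest on the same libraries. All values of the 10 genes are therefore given as a description, with errors but without a test, and adjusted p-values from 2-sided limma tests across all genes are given only for genes outside the group.

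The cells were sorted from femora and tibiae that had been crushed and digested with collagenase. CAR cells, the CXCL12-abundant reticular cells of the marrow, had the gate CD45-CD31-Lin-PDGFRα+Sca1-. The gate of PaS cells differed from it in being Sca1+. Mice labelled wt were Ebf1+/+;Prx1+/cre and mice labelled ko were Ebf1fl/fl;Prx1+/cre, all on C57BL/6, so that wt and ko animals alike carried the Prx1 Cre driver, which is active in limb bud mesenchyme. The labels give neither age nor sex, and they do not say whether a library came from 1 animal or a pool, and p-values therefore measure the spread among these libraries alone. The series also lists 8 samples of genomic DNA, which were not analysed here.

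Cartilage matrix is built on thin fibrils in which type II collagen is the main component, type XI collagen lies in the core and sets the fibril diameter, and type IX collagen sits on the surface and links the fibril to other molecules. Between the fibrils, aggrecan carries the charged sugar chains that hold water, and matrilins act as adaptors. Type X collagen marks hypertrophic chondrocytes, while adult marrow stroma also holds skeletal progenitors that can express several of these genes without being chondrocytes.

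The libraries were alike in size, and marker genes followed the sort labels. FPKM, in which fragments are divided by transcript length and by library size, summed to between 491801 and 526074 per library, and between 11863 and 12295 genes reached 1 FPKM. The 7 CAR cell markers were higher in CAR than in PaS cells in both genotypes, and the 7 PaS markers were lower, in each case for 7 of 7 genes. Between genotypes, 3 of 7 CAR markers were called lower in CAR ko, and 4 of 7 PaS markers lower in PaS ko, where their sum was between 3437 and 3687 FPKM against 4219 to 4921 in PaS wt. Ebf1, the targeted gene, was between 46.8 and 48.9 FPKM in CAR wt and between 56.0 and 59.8 FPKM in CAR ko (log2 difference 0.25, adjusted p = 0.040 by limma), and between 50.5 and 62.1 FPKM in PaS wt and between 60.7 and 65.0 FPKM in PaS ko (0.16, adjusted p = 0.25). A value for the whole gene does not check the loss of an exon, and the direction goes against a loss of transcript, so wt and ko below mean the libraries labelled wt and ko. Of the 11 chondrocyte markers outside the group that the tables hold, Matn1 was listed at 0 in all CAR wt libraries. No other gene of the cell type marker lists was at 0 throughout a group. Ihh, the hedgehog ligand of growth plate chondrocytes, did not exceed 0.161 FPKM in any library.

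In wt CAR cells the group spanned more than 2 orders of magnitude per kilobase, and its order was led by the core fibril chains. Col2a1, the only chain of type II collagen, had a level of 370.5 ± 44.4 FPKM (SD, n = 3). Col11a2 followed at 91.6 ± 3.49 FPKM and Col11a1 at 67.4 ± 0.550 FPKM, and the third chain of type XI collagen is itself a product of Col2a1. Lect1, which encodes the cartilage angiogenesis inhibitor chondromodulin, had 32.1 ± 4.81 FPKM, Col9a3 29.1 ± 4.33 FPKM and Col9a2 25.8 ± 3.41 FPKM, and the library values of these 3 neighbours in the order overlapped. Col9a1 lay lower at 9.63 ± 1.53 FPKM, Matn3 and Acan overlapped at 4.57 ± 0.468 and 4.48 ± 0.581 FPKM, and Col10a1 closed the order at 1.50 ± 1.10 FPKM. Together the 10 genes summed to between 601 and 697 FPKM in CAR wt, between 467 and 595 in CAR ko, between 31.7 and 36.9 in PaS wt and between 88.4 and 108 in PaS ko.

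**Figure D1:**
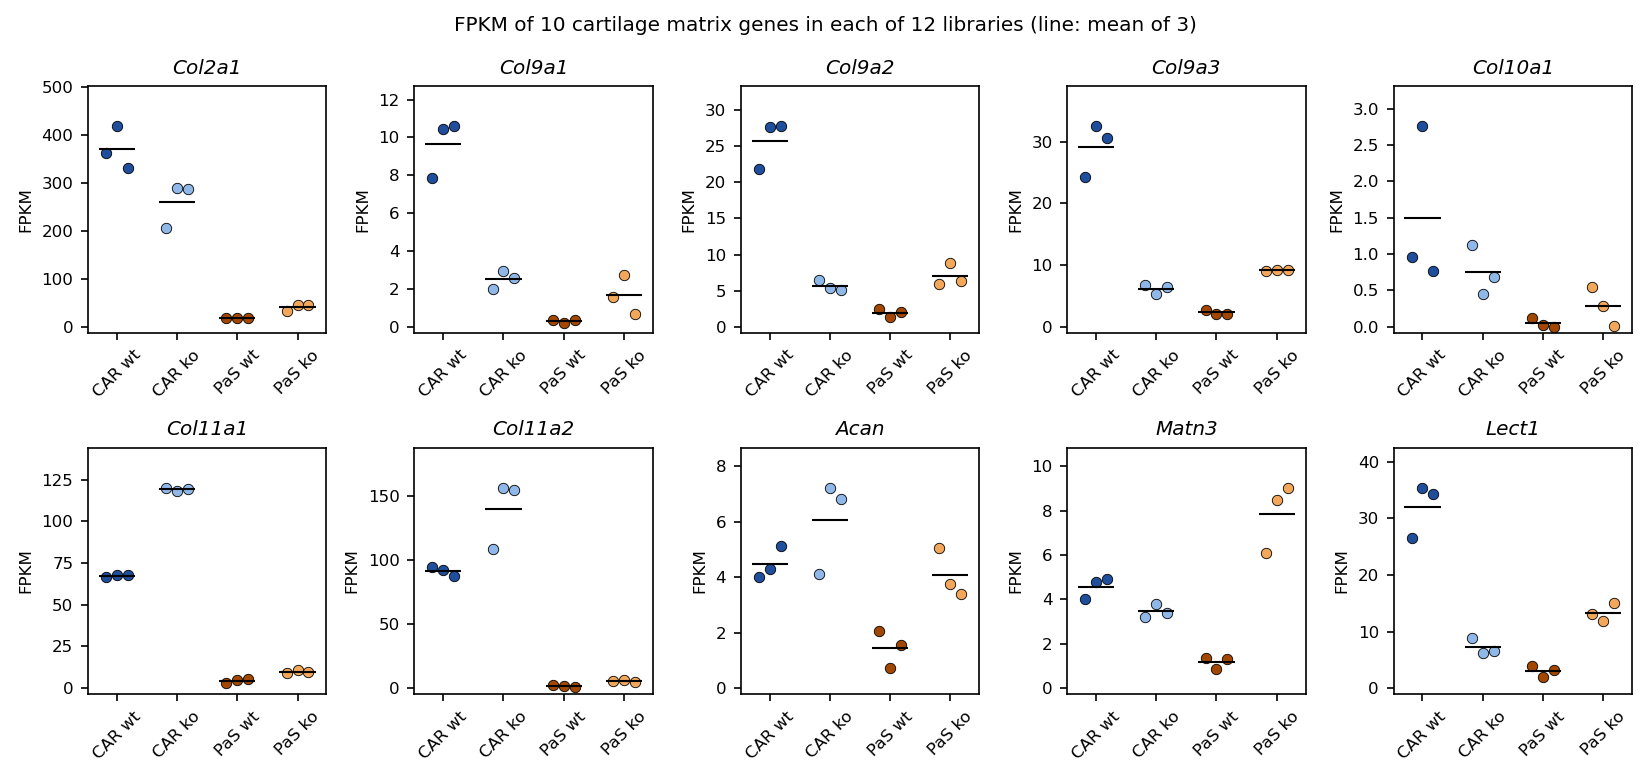
FPKM of the 10 genes in each of the 12 libraries, on linear axes, by group, with a line at the mean of 3. The CAR wt libraries sit above the PaS wt libraries for every gene, and Col2a1 is the highest of the 10 in all 4 groups.

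Promoter windows of 250 bases upstream of the annotated start were sought in RefSeq (GRCm38.p6) for the 10 genes. Windows were found for 8 of the 10 genes, and Col2a1 and Col9a3 are named only. Those shown were chosen from the genes that differed between the groups. The windows of Col9a1, Acan and Col10a1, which also differed between some groups, are not shown. The 5 windows shown, 5′ to 3′ on the gene's strand, belong to Col9a2 (chr4:121039316-121039565, plus strand), Lect1 (chr14:79662184-79662433, minus strand, listed as Cnmd), Col11a1 (chr3:114030290-114030539, plus strand), Col11a2 (chr17:34038888-34039137, plus strand) and Matn3 (chr12:8947679-8947928, plus strand), and capitals mark the motifs found.
Col9a2: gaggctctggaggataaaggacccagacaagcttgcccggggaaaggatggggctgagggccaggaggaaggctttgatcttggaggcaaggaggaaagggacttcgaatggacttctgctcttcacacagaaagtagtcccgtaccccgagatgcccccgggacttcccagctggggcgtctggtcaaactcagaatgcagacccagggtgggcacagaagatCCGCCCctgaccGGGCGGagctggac
Lect1: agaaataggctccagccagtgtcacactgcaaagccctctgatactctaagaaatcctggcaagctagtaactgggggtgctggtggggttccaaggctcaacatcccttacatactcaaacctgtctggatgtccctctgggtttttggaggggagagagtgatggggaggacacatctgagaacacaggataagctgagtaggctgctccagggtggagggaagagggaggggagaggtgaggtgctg
Col11a1: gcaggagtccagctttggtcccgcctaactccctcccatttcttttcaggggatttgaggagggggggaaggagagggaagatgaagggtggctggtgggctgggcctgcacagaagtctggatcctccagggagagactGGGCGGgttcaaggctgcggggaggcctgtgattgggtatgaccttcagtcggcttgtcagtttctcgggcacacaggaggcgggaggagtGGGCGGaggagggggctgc
Col11a2: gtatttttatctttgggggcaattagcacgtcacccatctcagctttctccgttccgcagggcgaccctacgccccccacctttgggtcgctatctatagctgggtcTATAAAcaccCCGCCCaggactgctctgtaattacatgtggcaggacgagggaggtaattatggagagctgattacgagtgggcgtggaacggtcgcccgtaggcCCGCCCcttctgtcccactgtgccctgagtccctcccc
Matn3: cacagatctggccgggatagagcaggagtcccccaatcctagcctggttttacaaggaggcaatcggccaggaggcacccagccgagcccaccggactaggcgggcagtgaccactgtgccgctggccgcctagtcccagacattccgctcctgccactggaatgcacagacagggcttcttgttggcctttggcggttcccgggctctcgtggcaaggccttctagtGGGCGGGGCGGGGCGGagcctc
The windows of Col9a2 and Lect1, both lower in CAR ko and higher in PaS ko, differed in base composition: that of Col9a2 had 60.4% G and C with 9 CpG dinucleotides, and that of Lect1 54.0% with 0 CpG. The GC box GGGCGG, read on both strands, was in 5 of the 9 windows of the group (Col9a1 has 2 starts) and in 32.7% of all 32851 RefSeq windows of that length. It occurred 2 times each in the windows of Col9a2, Col11a1 and Col11a2, 3 times in that of Acan, and in 3 overlapping copies in that of Matn3. TATAAA was in 2 of the 9 windows, those of Col10a1 and Col11a2, against 12.4% of all windows. Of the 2 SOX core motifs searched, ACAAAG was in the Col10a1 window only (16.5% of all windows) and ACAAT in none of the 9 (27.7%). The EBF palindrome, a core sequence bound by EBF proteins, was in none of the 9 windows and in 0.779% of all windows. These are matches of letters in a short window and say nothing of which factor acts on these genes.

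Type II collagen was the most abundant of the 10 transcripts in every group, and its wt and ko libraries did not overlap in either population. In CAR cells Col2a1 had 362, 419 and 331 FPKM in the wt libraries and 206, 289 and 287 FPKM in the ko libraries, so all ko libraries lay below all wt libraries. In PaS cells the order was the other way, with 18.4, 17.5 and 18.6 FPKM in wt and 32.5, 45.0 and 44.4 FPKM in ko. On the log2(FPKM + 1) scale, which understates the change of low genes, ko minus wt was -0.52 (SE 0.14) in CAR and 1.10 in PaS cells. In these bulk libraries, fewer cells of a type and less RNA per cell cannot be told apart, which holds for every difference below.

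The 3 chains of type IX collagen, the surface partner of the type II fibril, were lower in CAR ko and higher in PaS ko. Col9a3 had 24.2, 32.5 and 30.5 FPKM in CAR wt against 6.72, 5.25 and 6.43 FPKM in CAR ko, a log2 difference of -2.07 (SE 0.14). In PaS cells it had 2.77, 2.14 and 2.12 FPKM in wt and 9.09, 9.24 and 9.26 FPKM in ko, a log2 difference of 1.62. The 3 PaS ko libraries thus lay close together and above every CAR ko library.
Col9a2 had 21.9, 27.7 and 27.8 FPKM in CAR wt, 6.44, 5.33 and 5.07 in CAR ko, 2.42, 1.33 and 2.09 in PaS wt, and 5.99, 8.84 and 6.35 in PaS ko. The wt and ko libraries did not overlap in either population, with log2 differences of -2.02 (SE 0.17) in CAR and 1.45 in PaS. Col9a1 had 7.87, 10.4 and 10.6 FPKM in CAR wt, 2.01, 2.93 and 2.60 in CAR ko, 0.350, 0.174 and 0.366 in PaS wt, and 1.60, 2.72 and 0.682 in PaS ko. Its differences were -1.60 (SE 0.24) in CAR and 0.97 in PaS, again without overlap, although its PaS ko libraries were the most spread of the 3 chains.

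The stoichiometry of the chains within a library moved less than their level. Col9a3 per 100 Col9a2, both in FPKM, lay between 110 and 117 in CAR wt, 98.6 and 127 in CAR ko, 101 and 161 in PaS wt and 105 and 152 in PaS ko, so the 4 groups overlapped. Col9a1 per 100 Col9a3 was between 32.0 and 34.7 in CAR wt and between 29.9 and 55.7 in CAR ko, but between 8.15 and 17.3 in PaS wt and between 7.36 and 29.4 in PaS ko, below both CAR groups. Relative to its partner chain, Col9a1 was thus scarcer in PaS than in CAR libraries of the same genotype.

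Type XI collagen, which shares its fibril with type II, went the other way in CAR cells. Col11a1 had 66.8, 67.7 and 67.7 FPKM in CAR wt and 120.2, 118 and 119 FPKM in CAR ko, a log2 difference of 0.81 (SE 0.12) between groups that each varied by a few FPKM. In PaS cells it had 3.32, 5.23 and 5.34 FPKM in wt and 9.09, 11.1 and 9.73 FPKM in ko, a log2 difference of 0.98. Col11a1 was thus higher in ko in both populations, without overlap.
Col11a2 had 94.6, 92.5 and 87.8 FPKM in CAR wt, 109, 157 and 155 in CAR ko, 2.22, 1.63 and 1.03 in PaS wt, and 5.35, 6.29 and 4.84 in PaS ko. Its ko libraries lay above its wt libraries in both populations, with log2 differences of 0.59 (SE 0.16) in CAR and 1.32 in PaS, and CAR ko library 1 was nearest to wt.

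Set against Col2a1 in the same library, the fibril's core and surface chains parted in CAR cells. Col11a1 per 100 Col2a1 lay between 16.2 and 20.4 in CAR wt and between 40.8 and 58.3 in CAR ko, and Col11a2 per 100 Col2a1 between 22.1 and 26.5 and between 52.8 and 54.3. Col9a3 per 100 Col2a1 lay between 6.70 and 9.22 in CAR wt and between 1.82 and 3.26 in CAR ko. None of these 3 ratios overlapped between the CAR genotypes.
In PaS cells Col9a3 per 100 Col2a1 was between 11.4 and 15.1 in wt and between 20.5 and 28.0 in ko, while Col11a1 per 100 Col2a1 overlapped (between 18.1 and 29.8 in wt, and between 21.9 and 28.0 in ko). The share of Col2a1 in the summed FPKM of the 10 genes was between 55.1 and 60.1% in CAR wt, 44.1 and 48.6% in CAR ko, 49.7 and 55.3% in PaS wt and 36.7 and 43.2% in PaS ko, so it was lower in ko in both populations.

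**Figure D2:**
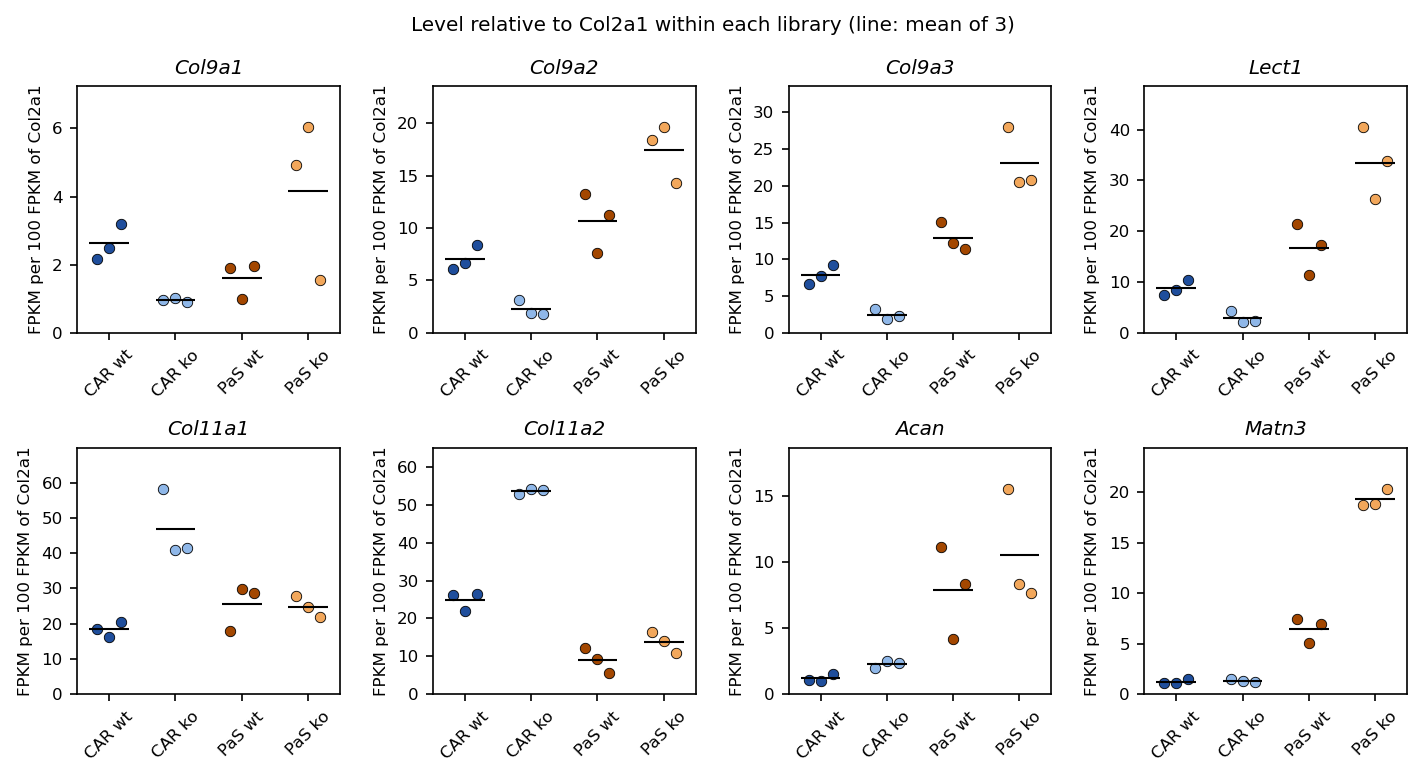
Levels of other members per 100 FPKM of Col2a1 in the same library, by group, with a line at the mean of 3. In CAR ko the Col11a1 and Col11a2 ratios lie above CAR wt and the Col9a3 ratio below it, and Matn3 is between 18.8 and 20.4 in PaS ko.

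Among the matrix proteins that are no collagens, Lect1 had the profile of the type IX chains. It had 26.6, 35.4 and 34.2 FPKM in CAR wt and 8.84, 6.14 and 6.64 FPKM in CAR ko, a log2 difference of -2.01 (SE 0.18). In PaS cells it had 3.93, 2.01 and 3.23 FPKM in wt and 13.1, 11.8 and 15.0 FPKM in ko, a log2 difference of 1.84. Its level per 100 Col9a3 was between 109 and 112 in CAR wt and between 103 and 132 in CAR ko, and between 94.0 and 152 in PaS wt and between 128 and 162 in PaS ko.
Matn3, the matrilin that bridges type II and type IX collagen and other matrix proteins, differed between genotypes mainly in PaS cells. It had 4.04, 4.77 and 4.91 FPKM in CAR wt and 3.21, 3.79 and 3.39 FPKM in CAR ko, a narrow gap without overlap and a log2 difference of -0.32 (SE 0.16). In PaS cells it had 1.36, 0.884 and 1.30 FPKM in wt and 6.10, 8.47 and 9.04 FPKM in ko, a log2 difference of 2.02. Per 100 Col2a1, Matn3 lay between 1.12 and 1.48 in CAR wt, 1.18 and 1.56 in CAR ko, 5.04 and 7.40 in PaS wt and 18.8 and 20.4 in PaS ko. PaS ko libraries thus held more Matn3 for their type II collagen than any other group.

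Acan, the core protein of aggrecan, had 4.01, 4.30 and 5.13 FPKM in CAR wt and 4.12, 7.23 and 6.83 FPKM in CAR ko, where the groups overlapped (log2 difference 0.34, SE 0.22). In PaS cells it had 2.05, 0.739 and 1.56 FPKM in wt and 5.05, 3.76 and 3.39 FPKM in ko, without overlap (1.07). Col10a1, the hypertrophic collagen, had the lowest level of the group in every library. It had 0.963, 2.76 and 0.767 FPKM in CAR wt, 1.13, 0.453 and 0.684 in CAR ko, 0.126, 0.0265 and 0 in PaS wt, and 0.553, 0.286 and 0.0153 in PaS ko. Taking its smallest value above 0 as 1 read, its values corresponded to about 68, 211, 59, 80, 31 and 50 reads in the CAR libraries. In the PaS libraries they corresponded to about 8, 2, 0, 41, 23 and 1 reads, in the same order. CAR wt library 2 stood above the rest, wt and ko libraries overlapped in both populations, and the gene passed 1 FPKM in too few libraries to be tested.

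**Figure D3:**
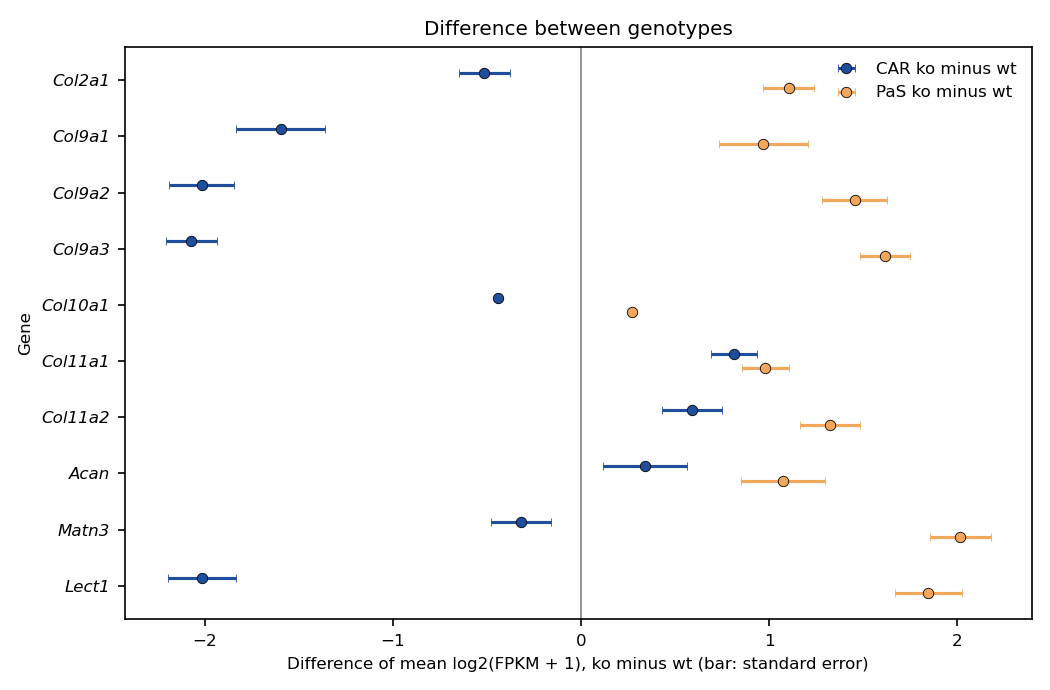
Log2 difference of ko minus wt on the log2(FPKM + 1) scale for each gene in CAR and in PaS cells, with standard errors of the limma model except for Col10a1, which was not tested. The type IX chains and Lect1 lie below 0 in CAR and above 0 in PaS, while Col11a1 and Col11a2 lie above 0 in both.

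In counts, 8 of the 10 genes had CAR groups that did not overlap, 2 higher and 6 lower in ko. Over all 12938 genes tested, 16% did not overlap with ko higher and 14% with ko lower. The 9 genes that passed the filter had a median log2 difference of -0.52 in CAR cells, against 0.01 over all genes. In PaS cells 9 of 10 did not overlap, each with ko higher, against 11.5% of all genes, and 0 had ko lower, against 11.9%, with a median of 1.32 against 0.00. The genes were selected with part of these results known, so the counts describe them and nothing is read from the shares. Single libraries moved only the Acan difference in CAR cells by more than 1.5 times, to 0.56 without ko library 1 and 0.21 without ko library 2.

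Between the populations, wt CAR libraries held more of every one of the 10 transcripts than wt PaS libraries, without overlap for any of them. On the log2(FPKM + 1) scale, the difference of CAR minus PaS was 5.16 (SE 0.16) for Col11a2, 4.27 (SE 0.14) for Col2a1 and 3.62 (SE 0.12) for Col11a1, the 3 core fibril chains. It was 3.20, 3.17 and 3.03 for Col9a2, Col9a3 and Col9a1 and 3.05 for Lect1, which lie within a standard error of one another. Matn3 (1.36), Acan (1.19) and Col10a1 (1.17) had the smaller differences on this scale.
As ratios of mean FPKM, Col11a2 was 56.2-fold, Col2a1 20.4-fold, Col11a1 14.6-fold, Col9a2 13.3-fold, Col9a3 12.4-fold, Lect1 10.5-fold, Matn3 3.88-fold and Acan 3.09-fold higher in CAR wt. The ratios of Col9a1 (32.5-fold) and Col10a1 (29.5-fold) divide by PaS wt means of 0.297 and 0.0508 FPKM and rank higher for that reason than on the log2 scale. Non-overlap was common in this comparison, at 24.4% of all genes with CAR higher and 26.7% with CAR lower. The 9 genes that passed the filter had a median log2 difference of 3.17, against -0.00 over all genes, though Col9a1, below 1 FPKM in all PaS wt libraries, passed only through the other groups.

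In ko libraries Col2a1, Col11a1 and Col11a2 were higher in CAR than in PaS cells without overlap, with log2 differences of 2.65 (SE 0.14), 3.46 (SE 0.12) and 4.43 (SE 0.16). Col9a3, Matn3 and Lect1 were lower in CAR ko than in PaS ko, with log2 differences of -0.52 (SE 0.14), -0.98 (SE 0.16) and -0.81 (SE 0.18), and their libraries did not overlap either. Those of Col9a1 (0.46), Col9a2 (-0.27), Col10a1 (0.45) and Acan (0.46) overlapped.
By overlap 3 of 10 thus lay higher, against 22.8% of all genes, and 3 of 10 lower, against 25.1%, shares near the background from which nothing is read. The median over the 9 was 0.46 against 0.00. Without PaS ko library 2 the difference was 0.74 for Col9a1 and -0.12 for Col9a2, and without PaS ko library 3 it was 0.17 for Col9a1.

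**Figure D4:**
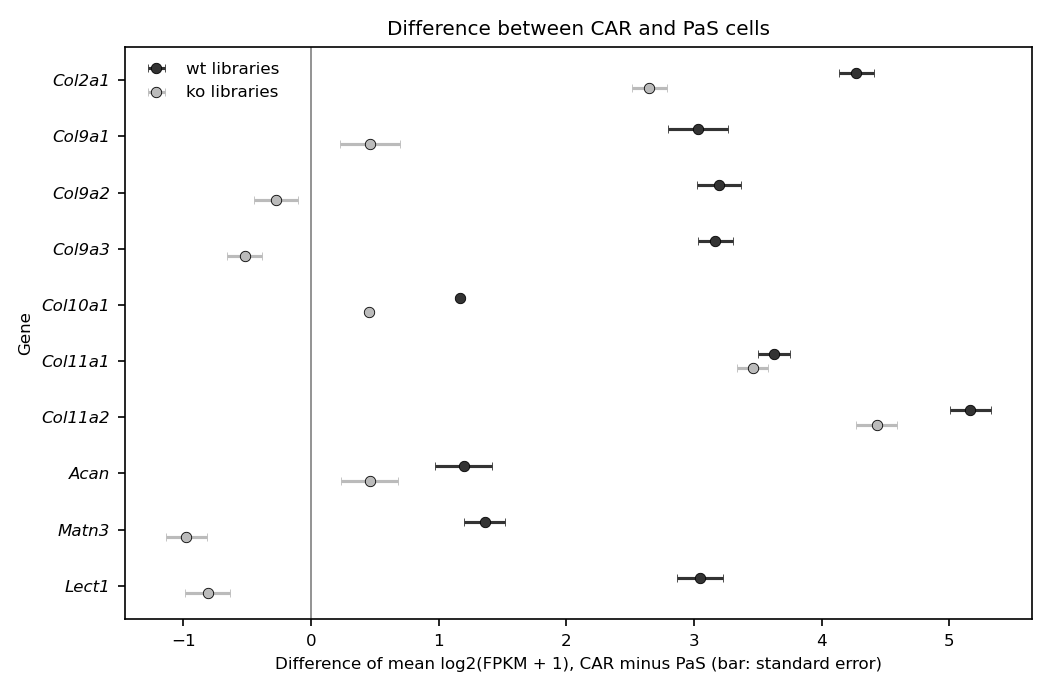
Log2 difference of CAR minus PaS for each gene in wt and in ko libraries, with standard errors of the limma model except for Col10a1, which was not tested. All wt differences lie above 0, and those of Col9a3, Matn3 and Lect1 in ko lie below 0.

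Other genes of cartilage were counted in lists that, like the 10 genes, were written with earlier results of these libraries known. Of 17 tested other cartilage matrix genes, 11 rose and 0 fell in CAR ko (median log2 difference 0.47), against 6.51% and 5.74% of all genes. In PaS ko 12 rose and 1, Vit, fell (median 0.98), against 3.41% and 4.03%. By the test of the difference between these effects, 3 of the 17 had the higher effect in CAR and 3 in PaS cells, against 3.32% and 3.26%. Cilp, a protein of the middle zone of articular cartilage, rose by 1.51 (SE 0.06, adjusted p = 4.9e-10) in CAR ko, and Clec3a, a cartilage lectin, by 1.24 in CAR ko and 1.54 in PaS ko. Comp, which binds type II and type IX collagen, rose by 0.57 in CAR ko, and Chad, a cell-binding leucine-rich protein, by 0.98 in PaS ko. Fmod, the fibril-binding proteoglycan fibromodulin, rose in both, by 0.68 and 0.86. No gene of this list was called lower in CAR ko, where Col9a1, Col9a2, Col9a3 and Lect1 were lower. Mia was nonetheless lower there without overlap, between 28.4 and 30.7 FPKM in ko against 39.9 to 43.1 in wt (-0.46, adjusted p = 0.26 by limma). In PaS cells Mia was higher in ko without overlap, between 7.30 and 18.6 FPKM against 3.65 to 7.17 in wt. These are the directions of the type IX chains and Lect1. Between the populations, 7 were called higher and 9 lower in wt CAR than in wt PaS, against 20.5% and 22.7% of all genes, and 7 and 8 in ko, against 17% and 19.8%.

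Among regulators of chondrocytes, Sox9, the transcription factor that activates Col2a1, Col9a1, Col11a2 and Acan, had 18.4, 23.3 and 19.9 FPKM in CAR wt and 25.8, 28.4 and 26.1 in CAR ko, and 19.6, 20.7 and 20.0 in PaS wt and 23.1, 24.2 and 22.9 in PaS ko. Its ko libraries lay above its wt libraries in both populations, as they did for 16% of all genes in CAR and 11.5% in PaS cells, and Sox9 was called in CAR ko (0.37, adjusted p = 0.014) but not in PaS ko (0.21, adjusted p = 0.22). Of the 17 regulators tested, 7 rose and 0 fell in CAR ko (median 0.33), led by Mef2c (0.82, adjusted p = 1.6e-04), Barx1 (1.04), Pth1r (0.40), the receptor for parathyroid hormone-related protein, and Pthlh (0.59), its ligand. In PaS ko 2 rose, Pth1r (0.49, adjusted p = 1.3e-04) and Fgfr3 (0.57, adjusted p = 0.011), and 0 fell (median 0.15).

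Among 10 genes of hypertrophic cartilage, most of them also expressed by osteoblasts, 6 rose and Mmp9 fell in CAR ko, and 7 rose and Mmp9 fell in PaS ko (medians 0.48 and 0.42). Mmp13, a collagenase that cleaves type II collagen, rose by 0.69 and 0.88, Spp1, which encodes osteopontin, by 0.70 and 0.89, and Alpl by 0.97 and 0.61. The machinery that folds and crosslinks collagen also differed: 9 of 16 tested genes rose and 0 fell in CAR ko (median 0.35), including the lysyl hydroxylase Plod2 (0.76, adjusted p = 6.8e-06), the prolyl hydroxylase subunits P4ha1 (0.54) and P4ha2 (0.65), and Sec23a (0.71), a coat protein for secretory export. In PaS ko 2 of the 16 rose, Plod2 (0.77) and Lox (0.38), and 0 fell (median 0.07).
Of 13 genes for proteoglycan chain synthesis and sulfation, which aggrecan depends on, Chsy1 rose in CAR ko (0.53, adjusted p = 0.014) and B3galt6 in PaS ko (0.58, adjusted p = 0.035), with 0 falling (medians 0.29 and 0.17). Of 11 matrix proteases and inhibitors, 6 rose and 0 fell in CAR ko, and 3 rose and 2, Adamts12 and Adamts5, fell in PaS ko (medians 0.35 and 0.15). Of 15 genes listed for collagens outside cartilage, 1 of them the tendon protein gene Tnmd, 6 rose and 1, Col1a1, was called lower in CAR ko. Col1a1 was listed at 0 in CAR ko libraries 2 and 3 and between 4677 and 5482 FPKM in the other 4 CAR libraries. Col1a2 was listed at 0 in CAR ko library 2, against 5144 and 5333 FPKM in CAR ko libraries 1 and 3. No fall is read from values of 0 beside such levels. In PaS ko 2 of the 15 rose and 2 fell (medians 0.02 in CAR and -0.11 in PaS cells).

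Markers of other cell types moved with the same contrasts, and their part in the values of the 10 genes was not tested. The 11 chondrocyte markers outside the group, a sum led by Comp and Chad, came to between 644 and 700 FPKM in CAR wt, 882 and 916 in CAR ko, 1553 and 1720 in PaS wt and 1948 and 2143 in PaS ko, with 5 of 10 tested called higher and 0 lower in CAR ko, and 4 higher and 0 lower in PaS ko. Between the populations 3 of them were called higher and 5 lower in CAR, in wt and in ko alike. Osteoblast markers summed to between 11923 and 13936 FPKM in CAR wt, 19742 and 27165 in CAR ko, 1557 and 1686 in PaS wt and 2046 and 2200 in PaS ko, with 9 of 10 called higher in CAR ko and 7 in PaS ko. That order of groups is also the order of Col11a1 and Col11a2 in these libraries. By mean FPKM it is also that of Hapln1 and Scrg1 in the chondrocyte list, though not of that list's sum.
Joint surface and synovial markers summed to between 431 and 522 FPKM in CAR wt, 1125 and 1190 in CAR ko, 2398 and 2510 in PaS wt and 1694 and 1761 in PaS ko. Tendon and ligament markers summed to between 75.8 and 83.5, 97.1 and 118, 328 and 344, and 549 and 589 FPKM in the same order of groups. Each was higher in CAR ko than in CAR wt, the direction opposite to that of the type IX chains and Lect1. In PaS ko the tendon and ligament sum was higher than in PaS wt, the same direction as these genes. The joint surface and synovial sum was lower in PaS ko, the opposite direction.

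Blood cell transcripts were present in spite of the gates and differed between the genotypes. Erythroid markers summed to between 4437 and 5090 FPKM in CAR wt, 2579 and 2886 in CAR ko, 3855 and 4796 in PaS wt and 4672 and 5087 in PaS ko, with 7 of 8 called lower in CAR ko and 3 of 8 higher in PaS ko, the directions of Col9a1, Col9a2, Col9a3 and Lect1. Neutrophil markers summed to between 9907 and 11403, 4466 and 5075, 21752 and 24471, and 6742 and 6915 FPKM in the same order of groups, with 8 of 8 lower in ko in both populations. B cell and leukocyte markers summed to between 244 and 255, 87.9 and 93.4, 294 and 345, and 190 and 211 FPKM, and endothelial markers to between 10.4 and 11.9, 14.5 and 17.2, 48.3 and 55.6, and 51.0 and 61.8 FPKM. Of B cell and leukocyte markers 8 of 8 were called lower in CAR ko, and in PaS ko 1 rose and 2 fell, while endothelial markers made up the smallest sums.

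The genes whose profile over the 12 libraries was nearest to that of Col9a3, by the root mean square difference of centred log2(FPKM + 1), were members of the group themselves: Col9a2 at 0.18, Lect1 at 0.20 and Col9a1 at 0.45. Among the nearest outside the group were Car1 (0.55), Optc (0.65), 2310040G24Rik (0.68) and BC021614 (0.68). Car1, an erythroid carbonic anhydrase, averaged 190.4 FPKM in CAR wt, 120.2 in CAR ko, 40.9 in PaS wt and 87.5 in PaS ko. Nearest to Matn3 were Gpha2 (0.39), Ostn (0.44), and the erythroid genes Car2, Hemgn and Rhd (0.46 each). Nearest to Col10a1 were 1810032O08Rik (0.23), Tap1 (0.23), St3gal3 (0.24), Susd1 (0.24) and Cstad (0.25). Col10a1 itself was low, with an estimated 0 to 41 reads in the PaS libraries. The points share library and depth, and the measure is a description.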

How the data were processed

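RNA was measured in 12 libraries of sorted mouse stromal cells, 4 groups of 3, grouped by the sample titles and genotype labels. Per the labels' protocols, RNA purified on columns was selected with oligo dT beads and amplified with the SMART-Seq v4 kit. The authors deposited FPKM for 24347 gene symbols, 1 table per library. Per the submitters' processing notes, bcl2fastq 2.17.1.14, TopHat2 2.0.14, Cufflinks 2.2.1, Cuffnorm 2.2.1 and Cuffdiff were used on mm10; annotation, strand and filters are not given in the sources used here, so overlapping and antisense genes cannot be told apart.

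No read counts are given, so absolute depth is unknown. Relative depth, read from low genes on steps of single reads (503 of 2458, within 0.03 of a whole number), was 0.888 to 1.12, and replicates differed beyond counting noise (chi-square per degree of freedom 3.90 to 8.67). The 12938 genes that reached 1 FPKM in 3 or more libraries were tested as log2(FPKM + 1) with limma 3.58.1 in R 4.3.3 (1 model of 4 groups, eBayes with trend, 8 residual degrees of freedom), with calls below a Benjamini-Hochberg adjusted p of 0.05. Every adjusted p is from this test. Of the 10 genes, 9 passed this filter and Col10a1 did not. An exact permutation test of 3 against 3 libraries cannot go below p = 0.1 and was not used. The script was tested on simulated data.

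The 10 genes, the 7 related gene lists, the 10 marker lists and the tests were chosen with earlier results of these data known. For that reason no p is given for the 10 genes, population differences included, although the plan was to test the latter. Named genes were the 10, Ebf1, the called genes of smallest p in each list (4 at most), and the 5 nearest profiles to Col9a3, Matn3 and Col10a1, of which 1 is not reported here; Sox9, Ihh, Matn1, Vit, Mia, Scrg1, P4ha1, Col15a1, Tnmd, Mmp9, Adamts5, Adamts12 and Col1a1 were named after their values were seen. The settings varied were the pseudocount (0.1 or 5), the filter (none or 5 FPKM), median-ratio or quantile scaling, weights per library, fitting only the groups compared, the replicate number as a block, values of 0 beside 100 FPKM set to missing, and leaving out each library. Same-numbered libraries of 2 groups did not deviate together (correlations between -0.041 and 0.108), so the numbers were not taken as pairs. Promoter windows came from RefSeq, GRCm38.p6. Figures used matplotlib 3.10.9 and pandas 2.3.3 in Python 3.11.15.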

Additional observations from a re-analysis of the deposited data

Results flagged for a closer look

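For 6 of the 10 cartilage matrix genes every ko library lay below every wt library in CAR cells and above every wt library in PaS cells. Over all 12938 genes tested, 14% did not overlap with ko lower in CAR cells, and 11.5% with ko higher in PaS cells. The share that did both was not computed, so nothing is read from the count. No p for the difference between the effects in CAR and PaS cells is given for the 10 genes, since they were selected with genotype results known. The 9 that passed the filter are among the 12938 genes tested. The log2 effect in CAR minus that in PaS was -3.86 for Lect1, -3.69 for Col9a3, -3.47 for Col9a2, -2.57 for Col9a1, -2.34 for Matn3 and -1.62 for Col2a1. The corresponding values of Col11a1, Col11a2 and Acan were -0.17, -0.73 and -0.73.

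Over all genes, limma's test of the difference of effects called 851 (adjusted p under 0.05), 429 with the higher effect in CAR and 422 in PaS cells. Those named here are at most 4 of each list, with Mia, Scrg1, P4ha1 and Col15a1 added after their values were seen so that the lists are complete. Of the other cartilage matrix genes, Cilp (1.24), Vit (1.04) and Comp (0.57) had the higher effect in CAR cells, and Mia (-1.67), Scrg1 (-1.02) and Chad (-0.64) the lower. Among regulators and genes of hypertrophic cartilage the effect was higher in CAR cells for Mef2c (0.89), Pthlh (0.88), Barx1 (0.85), Ank (0.55) and Alpl (0.36). So it was for the folding and export genes Sec23a (0.76), P4ha2 (0.50), Serpinh1 (0.41), P4ha1 (0.38) and P4hb (0.32), and for the protease Adamts5 (0.69). Of the collagens outside cartilage, Col22a1 (1.62), Col15a1 (0.76), Col6a3 (0.64), Col5a1 (0.41) and Col5a2 (0.32) had the higher effect in CAR cells. Of the erythroid markers 7 of 8, and of the B cell and leukocyte markers 5 of 8, had the lower effect in CAR cells.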

How the results depend on the processing

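The counts of called genes over the whole table kept within 1.5 times of the reported count under every alternative run. Of the members' log2 differences, 984 of 986 values under the alternatives kept their direction. Both exceptions were the difference of effects for Col11a1, which was -0.17, became 0.14 with a pseudocount of 5 and 0.014 without PaS wt replicate 1, and ranged from -0.26 to 0.014 over the libraries left out; the cause was not tested. The pseudocount moved low genes most: for Col9a1, CAR minus PaS in wt was 4.64 with a pseudocount of 0.1 and 1.46 with 5, against 3.03, and ko minus wt in PaS cells was 2.01 and 0.32, against 0.97. For Matn3 in PaS cells it was 1.05 with a pseudocount of 5, against 2.02, and for Lect1 1.19 against 1.84. With the replicate block, 1585, 961, 839, 5568 and 4785 genes were called for ko against wt in CAR, in PaS, the difference of these, and CAR against PaS in wt and in ko, against 1585, 962, 851, 5590 and 4769 without it. Fitting only the groups compared is not possible for the difference of effects, which needs all 4. Low read numbers limit the Col10a1 values in the PaS libraries, with an estimated 0 to 41 reads.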
